A study of Homo sapiens with 12 samples.

Results

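The genes described here are 49 components of the DNA replication machinery, found as the rows of the deposited count table whose Ensembl identifier carries one of the listed symbols. They are 49 of 57820 gene rows, and all 49 were among the 17096 genes with enough counts to be tested. RNA was sequenced from A549, SKOV3 and MDA-MB-231, which are established human lines of lung, ovarian and breast cancer. Per the labels the study asked which genes go with an altered sensitivity to tipifarnib, an inhibitor of protein farnesylation, when MYC is over-expressed. All cells were lentivirally transduced and carried either pCDH-puro-cMyc, which expresses full-length human MYC, or the pCDH-CMV control plasmid, and stable MYC lines were selected with puromycin. The promoter that drives MYC and whether the lines were pools or clones are not given in the sources used here. The 4 groups were MYC cells with tipifarnib, control cells with tipifarnib, MYC cells with DMSO and control cells with DMSO, each sampled once per line after 48 h, which gave 12 libraries. The tipifarnib dose was 10 µM for A549 but 20 µM for the other 2 lines, so in any comparison with A549 the line and the dose cannot be told apart. The 3 libraries of a group are different lines and no culture was repeated, so the p-values cover the spread between these 12 samples and not that between repeat cultures.

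Libraries held 20481363 to 26962994 gene counts. Levels are given as CPM, counts scaled to library size with TMM, a normalisation that sets the typical gene equal between libraries. MYC had 493.7 to 1593.1 CPM in MYC cells and 48.4 to 348.9 CPM in control cells. In MYC cells vector and endogenous transcripts cannot be separated. MYC also differed by treatment. In control cells it had 143.5, 99.7 and 348.9 CPM with tipifarnib against 104.8, 48.4 and 147.6 CPM with DMSO (A549, SKOV3 and MDA-MB-231). In MYC cells, in the same order, it had 506.1, 610.1 and 1593.1 CPM against 911.8, 493.7 and 708.8 CPM. Of the listed line markers, 4 of 5 for A549, 3 of 4 for SKOV3 (all but GRB7) and only 1 of 4 for MDA-MB-231 were higher in every library of their line than in the other lines. The A549 libraries had the highest AKR1B10 and ALDH1A1, 1320 to 2752 and 7931 to 8808 CPM. ERBB2 and PAX8 were highest in the SKOV3 libraries, at 1234 to 5987 and 185.4 to 280.8 CPM. For MDA-MB-231 the marker that stood apart was ZEB1, at 100.1 to 144.7 CPM in the MDA-MB-231 libraries and 58.2 to 91.5 CPM in the next line, SKOV3. VIM overlapped between MDA-MB-231 and SKOV3 (910.7 to 1340.3 and 769.6 to 1078 CPM), CAV1 reached higher levels in SKOV3 (153 to 681.4 CPM in MDA-MB-231 and 328.9 to 1128.9 CPM in SKOV3), and TGFBI was lowest in MDA-MB-231, at 12.1 to 53.1 CPM. AKR1C1, listed for A549, was higher in SKOV3 than in A549 in some libraries.

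Replication starts when the origin recognition complex, CDC6 and CDT1 load the ring-shaped MCM helicase onto DNA, and it proceeds when the kinase CDC7 with DBF4, together with CDC45, the GINS complex and MCM10, turns that ring into an active helicase. DNA polymerases alpha, delta and epsilon then copy the strands with the sliding clamp PCNA, while ribonucleotide reductase turns ribonucleotides into the deoxyribonucleotides used. Most of these genes are transcribed in late G1 and S phase under E2F transcription factors, and in cancer lines their mRNA level goes with the share of dividing cells. In bulk RNA a smaller share of cells in S phase and less of a transcript per cell cannot be told apart.

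Gene start sequences are shown because the genes moved together under tipifarnib. RefSeq windows on GRCh38.p14, from 250 bases before to 50 bases after an annotated start, were found for 42 of the 49 genes (53 windows). No window is given for MCM4, MCM5, GINS4, POLD3, DSCC1, RPA2 and RPA3. A window was searched on both strands for 4 E2F words, TTTCCCGC, TTTGGCGC, TTTCGCGC and TTTGCCGC, with overlapping matches taken as 1 site. An E2F word was present in 21 of 42 genes (50%), against 6.33% of 12025 tested genes with a window. The CCAAT box (CCAAT) was present in 26 genes, 61.9% against 42.5% of the tested genes, and the E-box CACGTG, the word that MYC binds, in 8 genes, 19% against 12%. The cell cycle element TTTGAA was present in 2 genes, 4.76% against 13.9%. Both an E2F word and a CCAAT box were found in 13 genes, and neither in 8. The windows below are those of genes on which the results turn, 5 with an E2F word and POLD2 without. Each is written 5′ to 3′ on the gene's strand, with the E2F words in capitals. MCM2 is at chr3:127598161-127598460 on the plus strand, MCM6 at chr2:135876394-135876693 on the minus strand, CDC6 at chr17:40287629-40287928 on the plus strand, GINS1 at chr20:25407423-25407722 on the plus strand, CLSPN at chr1:35769929-35770228 on the minus strand and POLD2 at chr7:44123499-44123798 on the minus strand.
MCM2: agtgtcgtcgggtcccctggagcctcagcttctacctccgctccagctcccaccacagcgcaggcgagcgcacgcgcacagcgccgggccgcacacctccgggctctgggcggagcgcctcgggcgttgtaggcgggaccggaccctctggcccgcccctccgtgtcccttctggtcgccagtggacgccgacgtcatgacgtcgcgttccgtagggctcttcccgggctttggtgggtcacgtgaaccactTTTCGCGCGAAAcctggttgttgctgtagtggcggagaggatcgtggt
MCM6: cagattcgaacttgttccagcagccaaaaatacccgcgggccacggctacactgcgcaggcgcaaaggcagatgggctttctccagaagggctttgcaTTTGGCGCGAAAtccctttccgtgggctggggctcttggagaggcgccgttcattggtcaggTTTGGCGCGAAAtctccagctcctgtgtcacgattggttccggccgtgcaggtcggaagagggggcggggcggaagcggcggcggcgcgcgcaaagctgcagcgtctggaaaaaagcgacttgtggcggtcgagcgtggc
CDC6: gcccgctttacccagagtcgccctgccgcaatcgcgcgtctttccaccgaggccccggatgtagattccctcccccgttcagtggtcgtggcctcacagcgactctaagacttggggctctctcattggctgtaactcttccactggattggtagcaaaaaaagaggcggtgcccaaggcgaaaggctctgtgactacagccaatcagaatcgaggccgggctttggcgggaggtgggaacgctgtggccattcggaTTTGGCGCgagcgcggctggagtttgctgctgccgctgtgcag
GINS1: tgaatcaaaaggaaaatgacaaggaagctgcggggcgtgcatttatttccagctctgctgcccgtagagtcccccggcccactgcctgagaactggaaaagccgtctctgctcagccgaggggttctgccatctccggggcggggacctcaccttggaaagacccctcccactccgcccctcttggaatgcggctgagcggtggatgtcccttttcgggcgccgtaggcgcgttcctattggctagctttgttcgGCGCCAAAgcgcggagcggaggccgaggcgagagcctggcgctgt
CLSPN: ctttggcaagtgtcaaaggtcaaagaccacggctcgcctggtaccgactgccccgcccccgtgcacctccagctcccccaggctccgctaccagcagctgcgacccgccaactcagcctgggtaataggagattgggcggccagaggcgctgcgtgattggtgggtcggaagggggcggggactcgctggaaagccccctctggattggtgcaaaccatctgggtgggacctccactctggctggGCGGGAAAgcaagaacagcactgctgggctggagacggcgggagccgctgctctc
POLD2: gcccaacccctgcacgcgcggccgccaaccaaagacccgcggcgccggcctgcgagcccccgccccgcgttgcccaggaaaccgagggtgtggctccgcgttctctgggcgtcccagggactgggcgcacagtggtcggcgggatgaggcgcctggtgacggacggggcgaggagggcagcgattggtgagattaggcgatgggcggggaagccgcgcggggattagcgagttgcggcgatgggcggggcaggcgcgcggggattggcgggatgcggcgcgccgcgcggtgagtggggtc

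MCM6 has 2 E2F sites in its window, at each of which TTTGGCGC overlaps TTTCGCGC read on the other strand. MCM2 has 1 site just after its annotated start, where TTTCGCGC overlaps itself on both strands as a palindrome. GINS1 and CLSPN carry the words on the opposite strand. A match is a description of the letters and not a bound site. The median tipifarnib change over both vectors was -0.83 on the log2 scale for the genes with an E2F word and -0.79 for those without (21 genes each). The smallest change of all 49, that of POLD2, and the largest, that of RRM2, both belonged to genes without a word in their windows.

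Tipifarnib was compared with DMSO over both vectors, as 6 pairs of libraries. Replication genes were lower in tipifarnib across every role: 47 of 49 passed the edgeR quasi-likelihood test as lower (Benjamini-Hochberg adjusted p under 0.05, over all 17096 genes) and 0 as higher. Among all tested genes 6.63% passed as lower and 4.66% as higher. All 49 had a negative log2 fold change, with a median of -0.80 against 0.00 for all genes, and 48 of them were lower in tipifarnib in each of the 6 pairs. In 19 of the 49 every tipifarnib library lay below every DMSO library, lines mixed, which held for 0.801% of all genes (0.269% had every tipifarnib library above). Both pairs of a line come from the same cells and are not independent of each other, and the 47 calls depended on how lines entered the test. When the counts of each line were summed first, leaving 3 pairs, 5 genes passed as lower, ORC1, GINS1, MCM6, RRM1 and POLA1, with edgeR adjusted p from 0.0396 (ORC1) to 0.0496 (POLA1), against 0.322% of all genes. Without the MDA-MB-231 libraries 12 genes passed (0.366% of all genes), without A549 31 (2.83%) and without SKOV3 45 (4.36%).

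**Figure D1:**
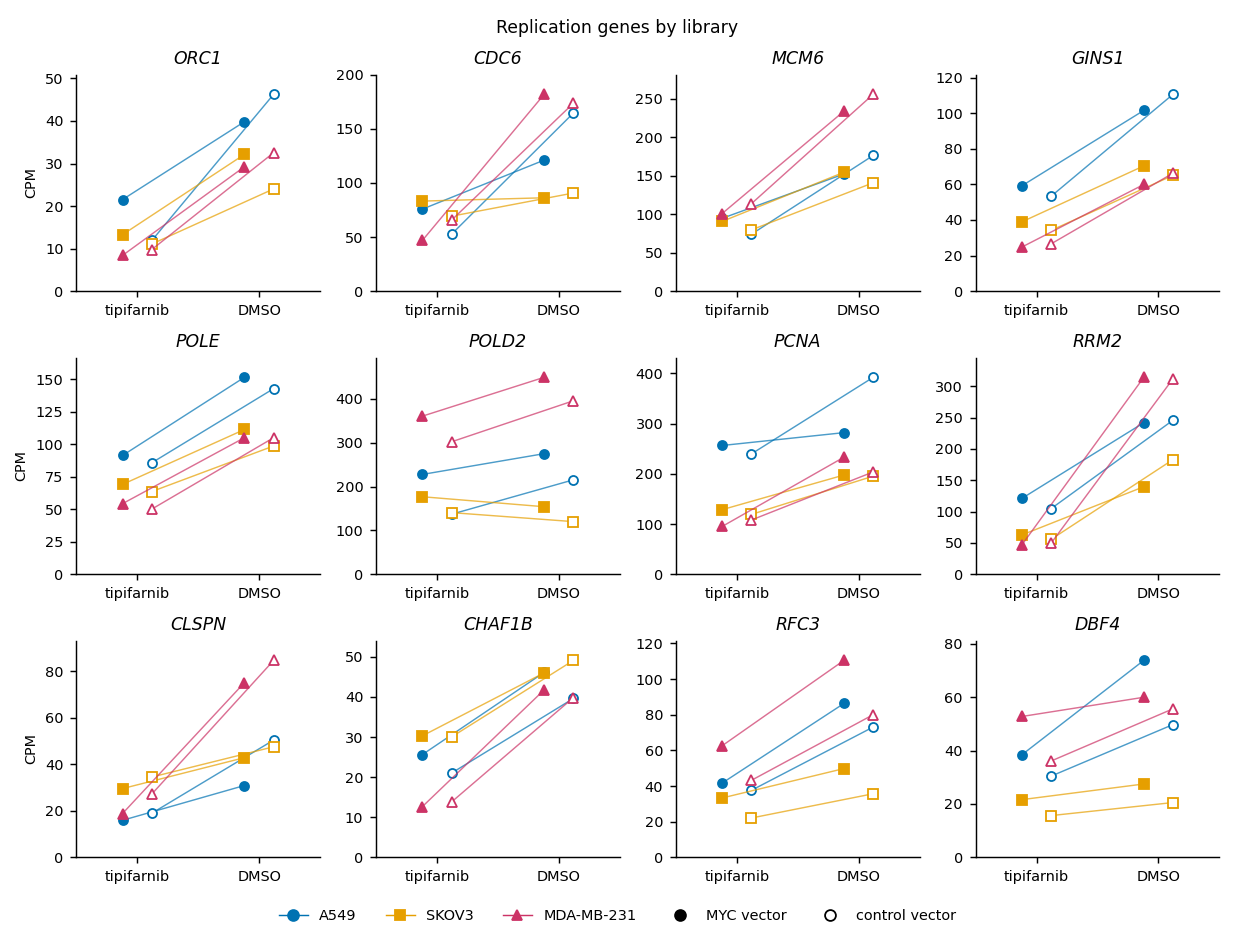
CPM of 12 replication genes in each library, with tipifarnib on the left and DMSO on the right of each panel; a line joins the libraries of the same cell line and vector, filled symbols are MYC cells and open symbols control cells. All 6 lines run lower on the tipifarnib side for every gene shown except POLD2, which was higher with tipifarnib in both SKOV3 pairs.

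All 6 origin licensing genes fell (median -0.73). ORC1, the largest subunit of the origin recognition complex, had a lowest, median and highest level of 8.42, 11.5 and 21.5 CPM in tipifarnib and 24.1, 32.4 and 46.3 CPM in DMSO. The groups did not overlap, and the change was -1.45 ± 0.16 (log2 fold change ± SE; adjusted p = 0.00115). CDT1, which brings the MCM ring to origins, had 21.1, 36.7 and 52.4 CPM in tipifarnib and 38.0, 65.6 and 84.7 CPM in DMSO, with overlap between lines and a change of -0.77 ± 0.10 (adjusted p = 0.00252). Geminin (GMNN), which holds CDT1 inactive after origins have fired, fell by 0.68 on the log2 scale. CDC6, the loader ATPase, changed by -1.01 ± 0.23 and the subunits ORC2 and ORC6 by -0.32 ± 0.09 and -0.39 ± 0.10.

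All 6 subunits of the replicative helicase ring, MCM2 to MCM7, fell, with changes that ran from -1.21 (MCM4) to -0.80 (MCM7). MCM6 had 74.0, 92.7 and 113.7 CPM in tipifarnib and 140.9, 165.5 and 255.9 CPM in DMSO (lowest, median and highest), the groups not overlapping. Its change of -0.98 ± 0.10 had the smallest p of the ring (adjusted p = 0.000794). MCM5 had the largest p of the ring (adjusted p = 0.00378), with 54.8, 77.2 and 107.3 CPM in tipifarnib, 133.3, 141.2 and 169.7 CPM in DMSO and a change of -0.92 ± 0.14. Groups overlapped only for MCM7 within the ring, since its level in SKOV3 was far below that in the other lines. In DMSO the subunits, equal in number in the assembled ring, differed in level. Per kilobase of exon the median over lines ran from 19.2 CPM for MCM5 to 107 CPM for MCM7. Exon length here merges all annotated exons of a gene, 7.338 kb for MCM5 and 4.386 kb for MCM7, and can exceed the mRNA length. Before this division the DMSO medians were 141.2 CPM for MCM5, 165.5 CPM for MCM6 and 468.7 CPM for MCM7, so the size of the difference depends on the lengths used. Per kilobase MCM5 was lowest of the ring in each line, but MCM7 was highest only in A549 and MDA-MB-231. In SKOV3 MCM3 was highest, at 53.7 and 70.9 CPM per kb in the DMSO libraries, against 31.3 and 47.4 CPM per kb for MCM7. MCM8, a relative that works in recombination with MCM9 and is no part of the ring, fell by 0.68.

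Of the 8 helicase activation genes 7 fell and GINS3 did not pass. GINS1, a subunit of the GINS complex that joins CDC45 on the helicase, had 24.8, 36.6 and 59.2 CPM in tipifarnib and 60.0, 68.4 and 110.6 CPM in DMSO. The groups were separated by less than 1 CPM, and within each line GINS1 was lower in tipifarnib, with a change of -1.03 ± 0.10 (adjusted p = 0.000559). CDC7, the kinase that phosphorylates the MCM ring, had 8.75, 13.3 and 21.2 CPM in tipifarnib and 16.1, 28.0 and 34.7 CPM in DMSO, with a change of -0.93 ± 0.10 (adjusted p = 0.00115). GINS3 had 18.2, 20.1 and 28.4 CPM in tipifarnib and 20.2, 31.7 and 35.8 CPM in DMSO. It was lower in tipifarnib in 6 of 6 pairs, yet its change of -0.51 (95% interval -0.86 to -0.16) missed the threshold (adjusted p = 0.0628). The other GINS subunits fell too, GINS2 by 1.25 and GINS4 to a level 0.501 times that in DMSO. CDC45 changed by -1.03 ± 0.13, MCM10, which binds the activated helicase, by -1.18 ± 0.20, and DBF4, the activator of CDC7, by -0.54 ± 0.11.

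Of 9 polymerase and primase genes 8 fell (median -0.68). POLE, the catalytic subunit of the leading strand polymerase epsilon, had 50.1, 66.3 and 91.3 CPM in tipifarnib and 98.7, 108 and 151.4 CPM in DMSO. POLA1, the catalytic subunit of polymerase alpha, which starts new strands with primase, had 24.3, 30.5 and 45.7 CPM in tipifarnib and 49.2, 65.9 and 80.6 CPM in DMSO. Neither gene's groups overlapped, and the changes were -0.80 ± 0.08 (POLE, adjusted p = 0.000745) and -1.01 ± 0.11 (POLA1, adjusted p = 0.00091). POLD2, an accessory subunit of polymerase delta, had 136.9, 202.2 and 360.5 CPM in tipifarnib and 120, 245.2 and 449.1 CPM in DMSO. It was lower in tipifarnib in 4 of 6 pairs and higher in both SKOV3 pairs, and its change of -0.20 (95% interval -0.48 to 0.08) did not pass (adjusted p = 0.341). The catalytic subunit of the same enzyme, POLD1, fell by 0.79 and the subunit POLD3 by 0.62. The difference between subunits was not tested. The primase genes PRIM1 and PRIM2 changed by -0.79 ± 0.13 and -0.61 ± 0.12.

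All 6 clamp and clamp loader genes fell (median -0.73). RFC3, a subunit of the loader that opens PCNA, had 22.1, 39.6 and 62.6 CPM in tipifarnib and 35.7, 76.6 and 110.5 CPM in DMSO, with overlap between lines and a change of -0.83 ± 0.10 (adjusted p = 0.00128). RFC5, of the same loader, had 34.1, 42.7 and 49.7 CPM in tipifarnib and 60.0, 73.5 and 89.8 CPM in DMSO, without overlap, and changed by -0.80 ± 0.10 (adjusted p = 0.00169). PCNA itself, the most abundant of the 49 per kilobase of exon (median of 149 CPM per kb in DMSO), changed by -0.74 ± 0.13. The 3 subunits of RPA, which coats single-stranded DNA, changed least as a role, with a median of -0.41. RPA1 had 93.5, 157 and 175.4 CPM in tipifarnib and 140.7, 232.8 and 326.3 CPM in DMSO and changed by -0.68 ± 0.10 (adjusted p = 0.00376). RPA2 had 34.1, 51.5 and 60.4 CPM in tipifarnib and 49.3, 64.1 and 84.3 CPM in DMSO and changed by -0.41 ± 0.10 (adjusted p = 0.0257). Both genes' groups overlapped across lines. RPA1 was apart within each line, whereas in SKOV3 the tipifarnib and DMSO levels of RPA2 overlapped.

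Ribonucleotide reductase had the largest change. RRM2, its small, cell-cycle-regulated subunit, had 47.1, 59.3 and 121.1 CPM in tipifarnib and 139.7, 243.9 and 314.3 CPM in DMSO. The groups did not overlap, and the change was -1.74 ± 0.24 (adjusted p = 0.00259), a level 0.299 times that in DMSO. RRM1, the large subunit, had 79.4, 107.4 and 140.6 CPM in tipifarnib and 144, 198.7 and 284.6 CPM in DMSO, and its change of -0.93 ± 0.08 had the smallest p of all 49 (adjusted p = 0.0005). FEN1, the nuclease that trims Okazaki fragments, had 50.1, 67.0 and 76.6 CPM in tipifarnib and 98.6, 128 and 237 CPM in DMSO and changed by -1.16 ± 0.19 (adjusted p = 0.00493). LIG1, the ligase that seals them, had 32.3, 38.3 and 51.7 CPM in tipifarnib and 59.9, 72.2 and 84.9 CPM in DMSO and changed by -0.85 ± 0.13 (adjusted p = 0.00433). Neither gene's groups overlapped.

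The fork factors and the histone chaperone CAF-1 fell as well. TIMELESS, which with TIPIN steadies the fork, had 51.7, 99.8 and 126.1 CPM in tipifarnib and 74.5, 159.4 and 226.4 CPM in DMSO, with overlap between lines and a change of -0.66 ± 0.07 (adjusted p = 0.00102). WDHD1, which links polymerase alpha to the helicase, had 22.6, 51.1 and 79.5 CPM in tipifarnib and 33.9, 87.2 and 135 CPM in DMSO and changed by -0.73 ± 0.09 (adjusted p = 0.00156). Claspin (CLSPN), which relays the fork's checkpoint signal to CHK1, changed by -1.17 ± 0.20 and TIPIN by -0.79 ± 0.12. CHAF1A, the large subunit of CAF-1, which places histones on new DNA, had 40.3, 56.6 and 66.9 CPM in tipifarnib and 78.0, 91.7 and 133.4 CPM in DMSO, and changed by -0.85 ± 0.12 (adjusted p = 0.00355). CHAF1B had 12.6, 23.3 and 30.3 CPM in tipifarnib and 39.6, 43.9 and 49.1 CPM in DMSO and changed by -1.05 ± 0.16 (adjusted p = 0.00413). The groups of both CAF-1 genes were apart.

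Some of these genes share exon sequence with a neighbour, and whether reads were counted by strand is not given in the sources used here. In the GENCODE 29 annotation 35.1% of POLA2 exon length is overlapped by a gene on the same strand, as is 20.2% of RRM2 and 21% of TIPIN (by the pseudogene RPL9P25). PRIM1 is overlapped over 21.6%, with 14.9% of its length under a gene on the same strand and 5.42% under HSD17B6 on the opposite one, while MCM2 and GINS4 are each overlapped over 23.6%, mostly by opposite strand transcripts. The reads were counted on another build, hg19, and how far such overlaps affect the values of these 6 genes was not tested.

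A further list of 38 replication genes outside the 49 moved less evenly. Of these 21 fell and 0 rose, against 6.63% and 4.66% of all genes, and 35 had a negative change, with a median of -0.48. The histone chaperones NASP and ASF1B changed by -0.89 ± 0.11 and -1.20 ± 0.16, the nuclease-helicase DNA2 by -0.94 ± 0.11 and the S phase kinase CDK2 by -0.62 ± 0.09. The 3 with a positive change were POLD4, a small polymerase delta subunit (0.96 ± 0.29, adjusted p = 0.0577), RRM2B, the reductase subunit induced by p53 (0.16 ± 0.10, adjusted p = 0.336), and RNASEH2B (0.02 ± 0.09, adjusted p = 0.907), all by the edgeR test. Within lines RRM2B rose in A549 (0.48 ± 0.11, adjusted p = 0.0317), where it had 107 and 104 CPM in the MYC and control libraries with tipifarnib against 75.3 and 76.7 CPM with DMSO, whereas RRM2 there fell by 1.11. POLD4 rose in MDA-MB-231 (1.71 ± 0.28, adjusted p = 0.00275) at low levels, with 4.73 and 6.13 CPM in tipifarnib and 1.16 and 2.26 CPM in DMSO.

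Genes on a list of dividing cell genes, apart from the 49 and chosen with earlier results of these data known, fell too. All 10 on that list (MKI67, PLK1, CCNB1, CCNA2, BUB1, AURKA, AURKB, KIF11, TOP2A and BIRC5) fell over both vectors, against 6.63% of all genes, with a median of -0.96. Their summed level was 838 to 1749 CPM in tipifarnib libraries and 1882 to 3344 CPM in DMSO libraries. The summed level of the 49 replication genes in MYC and control cells was 3440 and 2900 CPM in tipifarnib against 5347 and 5620 CPM in DMSO in A549. In SKOV3 it was 2734 and 2301 CPM in tipifarnib against 4022 and 3586 CPM in DMSO, and in MDA-MB-231 2955 and 2829 CPM against 6328 and 6063 CPM. The tipifarnib to DMSO ratio of the replication genes in MYC and control cells was 0.643 and 0.516 for A549, 0.68 and 0.642 for SKOV3, and 0.467 with either vector for MDA-MB-231. That of the dividing cell genes, in the same order, was 0.572 and 0.498, then 0.444 and 0.445, then 0.586 and 0.435. SKOV3 had the highest of these ratios for replication genes, while its dividing cell ratio was the lowest in MYC cells and between those of the other lines in control cells. The part of the dividing cell genes' change in the replication genes' change was not tested.

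**Figure D2:**
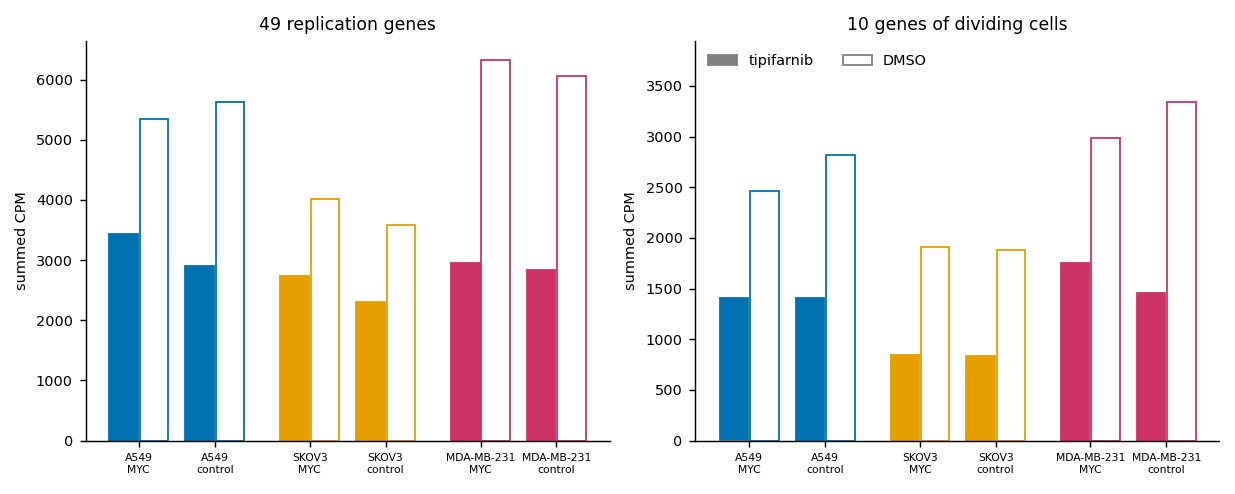
Summed CPM of the 49 replication genes (left panel) and of 10 genes of dividing cells (right panel) in each of the 12 libraries, with filled bars for tipifarnib and open bars for DMSO. Every tipifarnib bar is below its DMSO bar; for the replication genes the step is largest in MDA-MB-231, with a ratio of 0.467 for either vector.

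The effect in each line was then estimated from its 2 pairs, in a model of all 12 libraries that gave each line its own tipifarnib and MYC effects. The spread was that between the pairs within lines, pooled over the 3 lines. The SE and p-values of 1 line therefore draw on the other lines too. In A549, at 10 µM, 42 of 49 genes fell and 0 rose, against 4.47% of all genes lower and 3.56% higher. At 20 µM 32 fell and 0 rose in SKOV3 (7.48% and 6.57% of all genes), and 45 fell and 0 rose in MDA-MB-231 (12.1% and 10.6%). The median change was -1.02 in MDA-MB-231, -0.83 in A549 and -0.58 in SKOV3. In all 3 lines 29 of the 49 genes fell, as did 1.39% of all genes. ORC2 and RPA3 passed in none of the 3, although both had negative changes in each. Across the 49 genes, the changes of A549 and MDA-MB-231 went together with r = 0.718, those of SKOV3 and MDA-MB-231 with r = 0.667 and those of A549 and SKOV3 with r = 0.488. These correlations run over genes, which are not independent replicates, of lines that share no library.

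**Figure D3:**
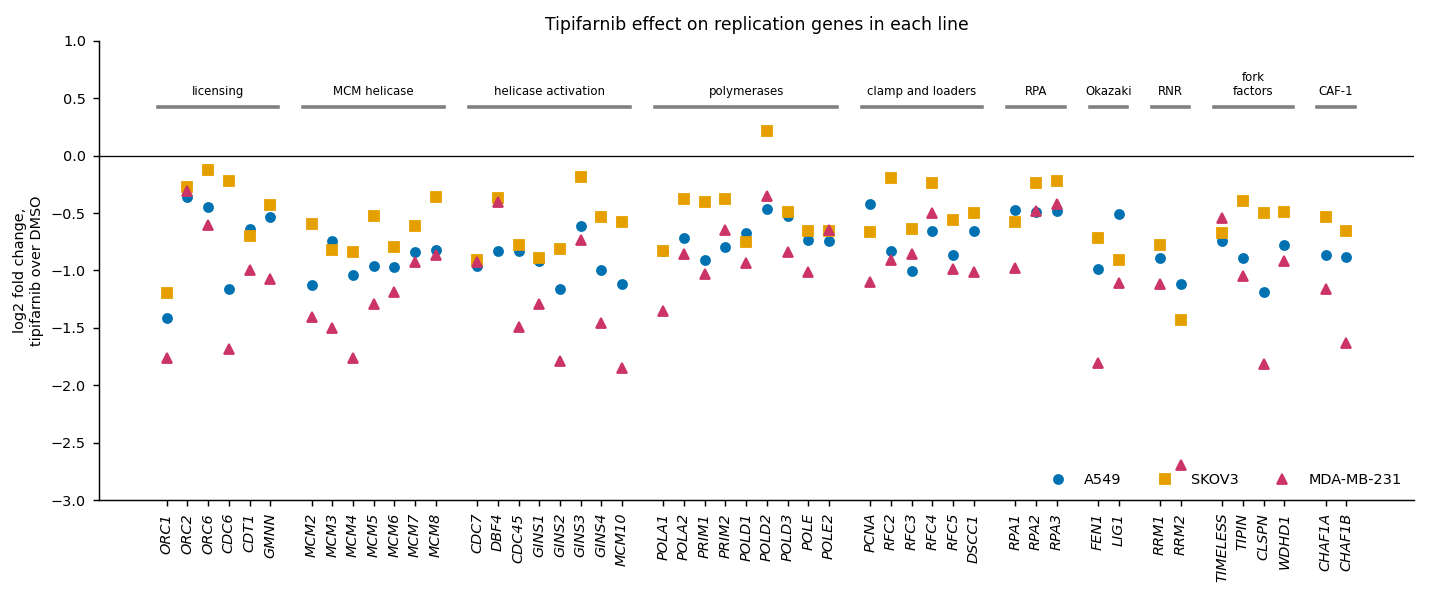
Log2 fold change of tipifarnib over DMSO for each of the 49 genes in A549, SKOV3 and MDA-MB-231, grouped by role; points below the line at 0 are lower in tipifarnib. The MDA-MB-231 triangles are the lowest for 38 genes and reach -2.69 at RRM2, the SKOV3 squares are the smallest falls for 40, and POLD2 in SKOV3 is the single point above 0.

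RRM2 had the widest spread between lines. In MDA-MB-231 it had 47.1 and 49.8 CPM in the MYC and control libraries with tipifarnib, against 314.3 and 312.1 CPM with DMSO, a change of -2.69 ± 0.15 (edgeR adjusted p = 4.78e-05). In SKOV3 it had 62.8 and 55.8 CPM with tipifarnib against 139.7 and 183.1 CPM with DMSO (-1.43 ± 0.15, adjusted p = 0.000554), and in A549 121.1 and 104.8 CPM against 241.9 and 245.9 CPM (-1.11 ± 0.14, adjusted p = 0.0065). Both tipifarnib libraries lay below both DMSO libraries in each line. CDC6 had 46.9 and 65.6 CPM with tipifarnib against 181.9 and 173.7 CPM with DMSO in MDA-MB-231 (-1.68 ± 0.22), and 75.8 and 52.7 CPM against 121.1 and 164.7 CPM in A549 (-1.16 ± 0.22). In SKOV3 it had 83.2 and 69.3 CPM with tipifarnib against 86.3 and 90.7 CPM with DMSO, and its change of -0.22 ± 0.21 did not pass (edgeR adjusted p = 0.55). CLSPN had 18.9 and 27.2 CPM with tipifarnib against 75.2 and 84.7 CPM with DMSO in MDA-MB-231 (-1.82 ± 0.15), and 29.6 and 34.5 CPM against 42.9 and 47.6 CPM in SKOV3 (-0.50 ± 0.15, adjusted p = 0.0498).

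MDA-MB-231 and SKOV3 received the same dose, so the difference of their tipifarnib effects was tested directly. It was negative, a deeper fall in MDA-MB-231, for 47 of 49 genes with a median of -0.48 (all genes 0.02). By the edgeR quasi-likelihood test 13 passed as lower and 0 as higher, against 3.49% of all genes lower and 3.85% higher. Among the 13 were 7 genes of the helicase and its activation, MCM2 (-0.81), MCM4 (-0.92), MCM5 (-0.77), CDC45 (-0.71), GINS2 (-0.97), GINS4 (-0.92) and MCM10 (-1.27 ± 0.21, adjusted p = 0.013). CLSPN differed by -1.32 ± 0.21 (adjusted p = 0.011), RRM2 by -1.26 ± 0.20 (adjusted p = 0.0115), CHAF1B by -0.97 ± 0.18 (adjusted p = 0.0165) and CDC6 by -1.46 ± 0.30 (adjusted p = 0.0243). FEN1 (-1.09) and the clamp loader subunit RFC2 (-0.71) were the others. Of these 13, 10 also fell in SKOV3 itself. Toward the other end the difference was, for example, 0.13 for TIMELESS (95% interval -0.25 to 0.51) and -0.01 for CDC7 (95% interval -0.55 to 0.53), neither of which passed. Of the 10 dividing cell genes 0 passed as lower or higher in this difference (median 0.19), and of the 38 further replication genes 7 passed as lower (median -0.29).

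**Figure D4:**
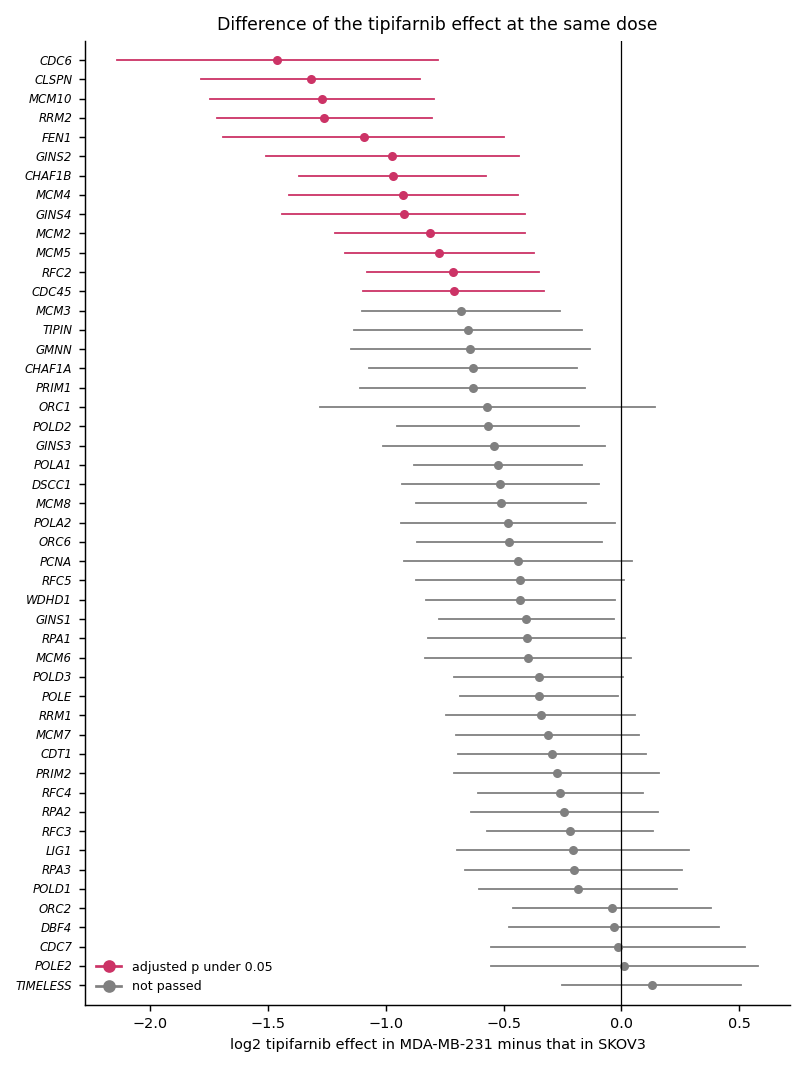
Difference of the log2 tipifarnib effect, MDA-MB-231 minus SKOV3, for each of the 49 genes with its 95% interval; coloured points passed at an adjusted p under 0.05. The 13 coloured genes run from CDC6 at -1.46 to CDC45 at -0.71, and values left of 0 mean a deeper fall in MDA-MB-231.

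Against A549 the differences were fewer. RRM2 differed by 1.58 ± 0.20 between A549 and MDA-MB-231 (A549 minus MDA-MB-231, edgeR adjusted p = 0.0079) and was the only one of the 49 to pass there as higher, against 0.872% of all genes, with 0 lower against 0.854%. Next by p were CHAF1B (0.75 ± 0.18, adjusted p = 0.0793) and MCM3 (0.76 ± 0.19, adjusted p = 0.09). Between A549 and SKOV3 0 genes passed in either direction, against 1.42% of all genes lower and 1.98% higher. An unadjusted p under 0.05 was seen for 13 of the 49, against 3572 of 17096 genes. DESeq2 gave 2 lower, against 563 of 13450 genes. The smallest p values were those of POLD2 (-0.68 ± 0.17, adjusted p = 0.0639) and RFC2 (-0.63 ± 0.16, adjusted p = 0.0648). Line and dose differ together in both comparisons.

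MYC over-expression was compared with the control vector over both treatments, again as 6 pairs. The replication genes changed little: 2 of 49 (4.08%) rose, RFC3 and DBF4, against 4.5% of all genes higher, and 0 fell against 2.84%. The median was 0.14 (all genes -0.00), and 39 of 49 had a positive change. Without SKOV3 the median was 0.08 and 18 of 49 had a negative change. RFC3, the clamp loader subunit, had 33.3, 56.2 and 110.5 CPM in MYC cells and 22.1, 40.4 and 80.0 CPM in control cells (lowest, median and highest of 6). The groups overlapped across lines, RFC3 was higher in MYC cells in 6 of 6 pairs, and the change was 0.41 ± 0.10 (edgeR adjusted p = 0.0324). DBF4, the CDC7 activator, had 21.6, 45.6 and 73.8 CPM in MYC cells and 15.6, 33.3 and 55.7 CPM in control cells, and was also higher in MYC cells in 6 of 6 pairs (0.42 ± 0.11, adjusted p = 0.0449). Without any 1 of the lines neither passed, and 0 genes passed when counts were summed within lines. In none of the 49 were all MYC libraries above or below all control libraries, which among all genes held for 0.252% and 0.135%.

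Next in order of p were CDT1 (0.39 ± 0.10, adjusted p = 0.0524), RFC4 (0.32 ± 0.09, adjusted p = 0.067), MCM7 (0.30 ± 0.09, adjusted p = 0.0814) and POLE2 (0.34 ± 0.11, adjusted p = 0.103), of which CDT1, RFC4 and MCM7 are among the 12 genes higher in MYC cells in all 6 pairs. CLSPN alone was lower in MYC cells in all 6 pairs, with 15.9, 30.2 and 75.2 CPM in MYC cells and 19.0, 41.1 and 84.8 CPM in control cells, and a change of -0.33 that did not pass (adjusted p = 0.334). Genes of dividing cells and the further replication genes had 0 calls in this comparison, of 10 and of 38. Among all genes 4.5% passed as higher and 2.84% as lower, shares at which lists of this size would hold few calls.

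Within A549, 3 genes rose in MYC cells, POLD2 (0.54 ± 0.12, adjusted p = 0.0146), CDT1 (0.50 ± 0.13, adjusted p = 0.0235) and DBF4 (0.46 ± 0.14, adjusted p = 0.0491), and CLSPN fell (-0.49 ± 0.15, adjusted p = 0.0497), against 9.94% of all genes higher and 7.8% lower by the edgeR test. CLSPN did not pass when either the SKOV3 or the MDA-MB-231 libraries were left out of the fit. In those fits 2 of the 49 passed as higher in A549 (1631 of 16751 and 1259 of 17230 genes). DESeq2 on all libraries also gave 2 higher, against 1649 of 15438 genes. Within SKOV3, 4 genes rose, against 4.58% of all genes: RFC3 (0.54 ± 0.11, adjusted p = 0.019), GINS3 (0.68 ± 0.15, adjusted p = 0.0229), RFC4 (0.47 ± 0.11, adjusted p = 0.0316) and CDT1 (0.51 ± 0.13, adjusted p = 0.0367). GINS3 had 28.4 and 33.3 CPM in MYC cells with tipifarnib and DMSO, against 18.2 and 20.2 CPM in control cells. Without the MDA-MB-231 libraries 1 of the 49 passed as higher in SKOV3 (378 of 17230 genes), and without the A549 libraries 6 (924 of 16863 genes). In MDA-MB-231 0 genes passed by edgeR, against 0.813% of all genes higher and 0.831% lower. An unadjusted p under 0.05 was seen for 8 of the 49, against 3129 of 17096 genes. DESeq2 and limma-voom gave 1 higher each, against 482 of 13118 and 194 of 17096 genes. RFC3 had the smallest p there (0.50 ± 0.11, adjusted p = 0.0529). Of the differences of the MYC effect between lines 0 passed by edgeR for the 49, against 1.07% of all genes lower and 1.49% higher for A549 minus SKOV3, 1.16% and 1.14% for A549 minus MDA-MB-231, and 0.181% and 0.0994% for SKOV3 minus MDA-MB-231. At an unadjusted p under 0.05 there were 3, 0 and 5 of the 49, against 2555, 2186 and 1882 of 17096 genes. DESeq2 gave 1 lower for the first of these differences (275 of 14775 genes) and 1 higher for the last (97 of 13781). The smallest p among these was that of GINS4, 1.01 ± 0.23 for SKOV3 minus MDA-MB-231 (adjusted p = 0.133).

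Whether MYC altered the tipifarnib effect was tested as the interaction, the tipifarnib effect in MYC cells minus that in control cells. By edgeR 0 of the 49 genes and 0% of all genes passed. At an unadjusted p under 0.05 there were 0 of the 49 and 125 of all genes, and DESeq2 and limma-voom also gave 0 of the 49. The estimate was positive, a smaller fall in MYC cells, for 43 of 49, with a median of 0.13 (all genes 0.009). Genes that move together are not independent replicates, so this count is a description only. Without A549 the median was 0.04 and 20 of 49 estimates were negative. The smallest p values belonged to RRM1 (0.25 ± 0.16), TIMELESS (0.20 ± 0.14), GMNN (0.33 ± 0.24), WDHD1 (0.24 ± 0.17), RPA1 (0.25 ± 0.20) and ORC2 (0.21 ± 0.17), all with an edgeR adjusted p of 1. All 49 of the 95% intervals held 0. Their median half-width was 0.51 on the log2 scale, and the ends farthest from 0 were -0.83 (CLSPN) and 1.29 (CDC6), so the size of difference that could have been detected varied from gene to gene. In this model the differences between lines in the tipifarnib and MYC effects count as spread, which widens the intervals. With own line effects the median was 0.11. In that fit 0 of the 49 and 625 of 17096 genes had an unadjusted p under 0.05, and 0 of all genes passed. Line by line, the median log2 ratio of tipifarnib to DMSO over the 49 genes was -0.72 in MYC cells and -0.89 in control cells of A549, -0.56 and -0.62 in those of SKOV3, and -0.99 and -1.07 in those of MDA-MB-231. The median was nearer to 0 in MYC cells in all 3 lines, but each median comes from 1 pair of libraries. Single genes of MDA-MB-231 went both ways. The log2 ratio there was -2.09 in MYC and -1.48 in control cells for GINS2, and -0.96 and -1.28 for RRM1. The summed level of the 49 genes in MDA-MB-231 had a tipifarnib to DMSO ratio of 0.467 with either vector.

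**Figure D5:**
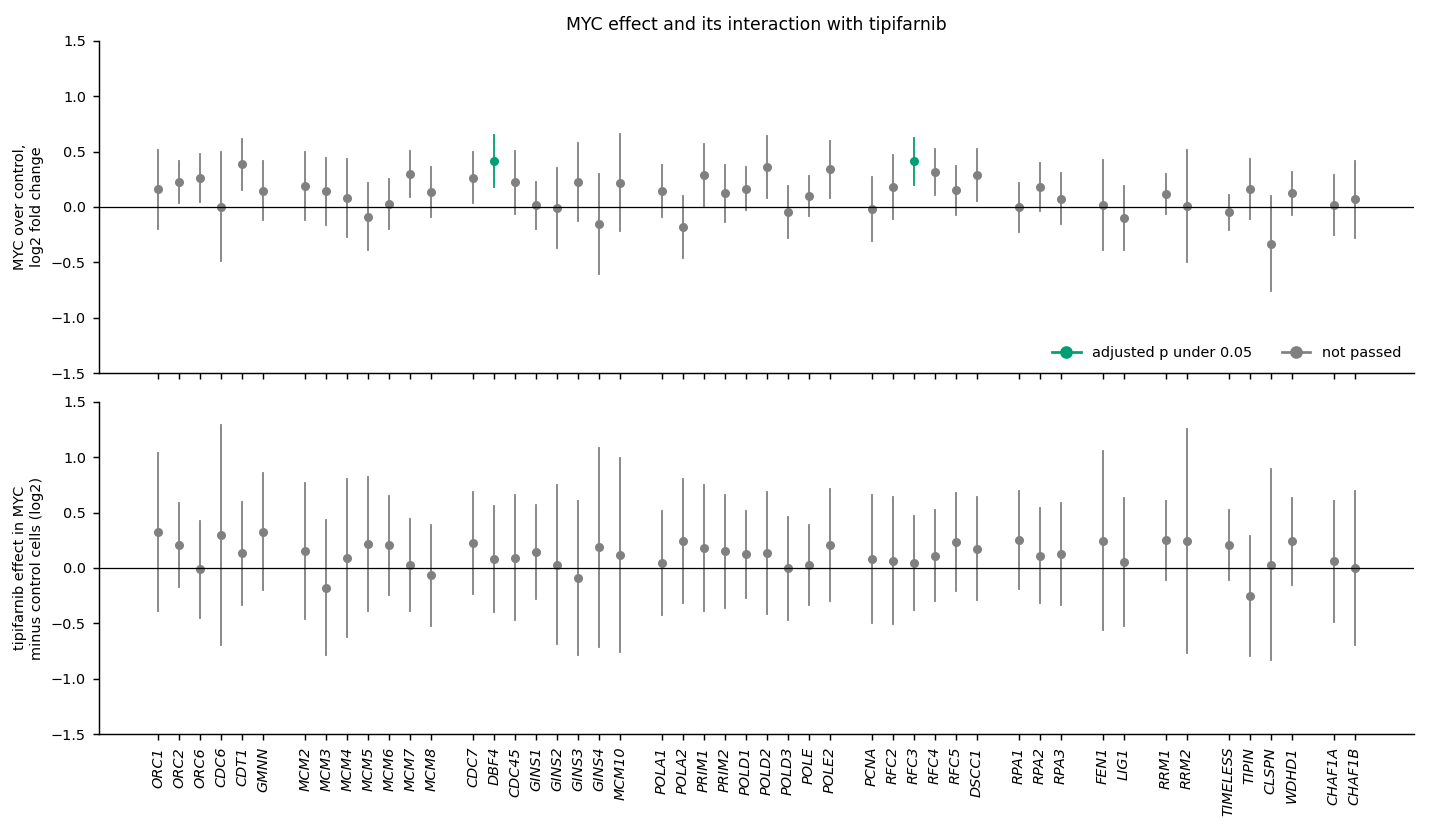
Log2 fold change of MYC over control cells (upper panel) and the tipifarnib effect in MYC cells minus that in control cells (lower panel) for each of the 49 genes, with 95% intervals from the fit. Coloured points passed at an adjusted p under 0.05: RFC3 and DBF4 in the upper panel and no gene in the lower panel.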

How the data were processed

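Per the labels, a SMARTER mRNA-Seq kit made the libraries of 12 cultures. TopHat2, HTSeq, DESeq2 and the build hg19 are named in the submitters' processing notes. The deposited table holds raw counts per gene, with 1 column per library. Its 5 HTSeq summary rows (17.5% to 19.9% of counts) were left out. Ensembl identifiers were paired with symbols through a gene name table, giving 1 row for each of the 49 genes.

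Genes were kept with filterByExpr and scaled with TMM, leaving 17096, and tested with the edgeR 4.0.16 quasi-likelihood test (R 4.3.3, limma 3.58.1), Benjamini-Hochberg adjusted over all of them. Comparisons over lines used cell line as a block plus group (6 residual degrees of freedom). Libraries of a line share their cells, so line pairs the samples, and its number is the replicate number. Comparisons within and between lines gave each line its own effects (3 residual degrees of freedom). The test was checked on simulated counts with added changes. For the comparisons over lines these changes were equal in all lines. That check therefore does not cover a response shared by the pairs of a line. Alternatives were DESeq2 1.42.0, its size factors, limma-voom, no low count filter, no replicate block, leaving out each line, counts summed within lines and, for the interaction, own line effects.

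Named were, per role, the genes with the smallest p and those that did not pass, and elsewhere up to 6 with the smallest p. The genes and lists were chosen with earlier results of these data known. CPM are TMM-scaled. Exon lengths and neighbours come from GENCODE 29 on another build, for names and lengths only. Each length merges all annotated exons of a gene, so levels per kilobase depend on the annotation.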

Additional observations from a re-analysis of the deposited data

Results flagged for a closer look

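The tipifarnib effect of 13 replication genes differed between MDA-MB-231 and SKOV3, both at 20 µM, by the edgeR test of the difference itself (log2, MDA-MB-231 minus SKOV3). The values were -1.46 for CDC6, -1.32 for CLSPN, -1.27 for MCM10, -1.26 for RRM2, -1.09 for FEN1, -0.97 for GINS2 and -0.97 for CHAF1B. The smaller ones were -0.92 for MCM4, -0.92 for GINS4, -0.81 for MCM2, -0.77 for MCM5, -0.71 for RFC2 and -0.71 for CDC45. Each line gives 2 pairs, so these rest on 4 libraries a line. RRM2 also differed between A549 and MDA-MB-231, by 1.58 (A549 minus MDA-MB-231), where the dose differed too.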

How the results depend on the processing

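All 441 fits of the 49 genes' tipifarnib effect over both vectors under an alternative had the same, negative, direction. The number that fell, 47, was 0 with no replicate block, that is, when the pairing by line was dropped, and 0 of all genes passed there too. In that setting 33 of the 49 had an unadjusted p under 0.05, against 968 of 17096 genes. The number was 12 to 45 without 1 replicate (a line), and 5 with counts summed within lines. For MYC over both treatments the number higher, 2, was 1 with DESeq2 size factors and with no low count filter, 6 with DESeq2, and 0 with no replicate block, without any 1 replicate and with counts summed within lines. All genes passing as higher were 770 of 17096 in the main fit. They were 704 of 17096 with DESeq2 size factors, 866 of 33136 with no low count filter and 1286 of 14775 with DESeq2. Leaving out another line gave 0 in place of 1 lower and 2 in place of 3 higher for MYC in A549. It gave 1 to 6 in place of 4 higher for MYC in SKOV3. All genes then passing in A549 were 1046 of 17230 to 1393 of 16751 lower and 1259 of 17230 to 1631 of 16751 higher. In SKOV3 378 of 17230 to 924 of 16863 were higher. For MYC in MDA-MB-231, 1 gene passed as higher with DESeq2, limma-voom and no low count filter, 0 to 1 did so without another line, and 1 passed as lower with no low count filter. All genes passing as higher were, in that order, 482 of 13118, 194 of 17096 and 585 of 33136, and 173 of 16751 to 321 of 16863 without another line. With no low count filter 724 of 33136 were lower. The tipifarnib difference A549 minus SKOV3 gave 2 lower with DESeq2 and 4 with no low count filter, and A549 minus MDA-MB-231 4 and 7 higher. All genes passing were 563 of 13450 and 814 of 33136 lower for the first, and 350 of 13781 and 557 of 33136 higher for the second. The MYC difference A549 minus SKOV3 gave 1 lower with DESeq2 and 2 with no low count filter, and SKOV3 minus MDA-MB-231 1 higher with each. All genes passing were 275 of 14775 and 593 of 33136 lower for the first, and 97 of 13781 and 276 of 33136 higher for the second. The cause was not tested. For single genes, 743 alternative values kept their side of the threshold, 167 no longer passed, 35 newly passed and 0 turned direction. These values cover all 49 genes for tipifarnib over both vectors but only the 6 with the smallest p in each other comparison. Directions did turn among the rest. Without SKOV3 18 of the 49 had a negative MYC change in place of 10, and without A549 20 had a negative interaction in place of 6. With 1 culture per line, vector and treatment, variation between repeat cultures was not measured.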
